A study of Danio rerio with 45 samples.

Results

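The zebrafish genes map3k1 and cirbpb each have 1 row in a table of read counts for 12670 rows. They are 2 of those rows, chosen by their read counts over the 5 sections and 3 stages: their RNAs are abundant in the early embryo and take a larger share of the RNA at 3 hours post fertilisation (hpf) than at 1 hpf. Because these values chose them, their abundance and their overall rise between stages are described here without a test. The choice did not directly use where along the embryo each RNA lies, or whether the change between stages is even along it. For map3k1 neither is independent of the choice. By read count it ranked 5th to 31st in section E, the most vegetal, but 532nd to 934th in section A. Its abundance thus rests on the vegetal sections, whose values also enter its section tests. The evenness of its change is likewise not independent of the overall rise. map3k1 RNA was concentrated at the vegetal end at every stage, and the ratio of its mean share at 3 hpf to that at 1 hpf was highest in section D, next to the most vegetal one. For cirbpb no difference between sections passed the test, and its mean share was somewhat higher at 3 hpf in each section.

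map3k1 encodes a mitogen-activated protein kinase kinase kinase, an enzyme that stands at the top of a relay of kinases. In mammals MAP3K1 phosphorylates MAP2K enzymes, which in turn activate the JNK and ERK kinases, and the protein also carries a RING-type domain with ubiquitin ligase activity. cirbpb encodes 1 of the zebrafish copies of cold-inducible RNA-binding protein. CIRBP has an RNA recognition motif followed by a stretch rich in arginine and glycine, was named for its induction by mild cold in mammalian cells, and can enter stress granules. Before the embryo's own genome is switched on, RNA in the embryo is largely the supply laid down by the mother. In fish eggs some of that supply is stored at the vegetal pole, and cytoplasm streams toward the animal pole, where the cells form.

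The study cut zebrafish embryos at 1, 2 and 3 hpf, when they have roughly 4, 64 and 1000 cells, into 5 sections along the animal-vegetal axis and sequenced the RNA of each section, a method called TOMO-seq. Section E is the most vegetal, D, C and B follow, and section A is the most animal. The labels give no strain, mutation or treatment, and they do not say how many embryos make up 1 replicate. Of 45 labelled libraries, 40 have a column: 3 replicates of each section at 1 hpf, 2 at 2 hpf and 3 at 3 hpf, or 8 embryo samples. The 5 libraries of the third replicate at 2 hpf are not analysed here.

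Ribosomal RNA was depleted and each library was made from the same mass of total RNA, per the labels' protocols. Values thus give shares within a section, and amounts per embryo were not measured. In such bulk sections, fewer cells or less cytoplasm of a kind cannot be told apart from less RNA in each. Totals ran from 1355607 to 6566549 counts per library. Section E was shallower at 3 hpf (1355607 to 2327972 counts) than at 1 hpf (3487492 to 5296971 counts). All 8 vegetal marker genes were higher in E than in A at each stage, and all 6 animal markers were lower, which is the order the section labels give. The marker lists were chosen with earlier results of these data known, so this is no independent check of that order. Of the first zygotic genes, 6 of 8 had a row, and of ovarian follicle genes 2 of 9, while none of 10 maternal liver and blood genes had one. Along the first principal component, with 39.3% of the variance, 13 libraries stood apart from the other 27: all sections of replicate 3 at 1 and 3 hpf, and sections A, B and E of replicate 2 at 2 hpf. Sections C and D of that last replicate lay with the 27, although the labels give its 5 sections as 1 biological replicate; whether they come from the same embryos was not tested. The deviations of same-numbered sections from their section means correlated across genes with a median r of 0.102 at 2 hpf, against 0.652 at 1 hpf and 0.581 at 3 hpf. Its ratios, shares and sums over sections below thus combine libraries from both sides of the split. Results are given with and without the 13 libraries where they bear on a call.

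Levels below are read counts relative to 1e6 reads of the library (CPM), scaled by the trimmed mean of M-values (TMM) over the 40 libraries. At 1 hpf, map3k1 had 1296, 2250 and 1802 CPM in the 3 libraries of section E. Section D had 412, 341 and 451 CPM. Section C had 255, 262 and 273 CPM, section B 277, 263 and 245 CPM, and section A 241, 266 and 247 CPM. Each E library was thus above each D library and each D library above each library of C, B and A, while C, B and A overlapped one another. The means were 1783 ± 477 CPM in E, 401 ± 55.6 CPM in D and 251 ± 13.2 CPM in A (SD, n = 3 each).

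At 2 hpf the order was the same at its vegetal end. map3k1 had 2024 and 3103 CPM in E and 743 and 834 CPM in D. It had 283 and 337 CPM in C, 274 and 292 CPM in B, and 329 and 300 CPM in A (replicates 1 and 2). C overlapped both B and A, while both A libraries lay above both B libraries.

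At 3 hpf map3k1 had 4647, 3016 and 4104 CPM in E. Section D had 2094, 1060 and 861 CPM, the widest relative spread of any section at that stage. Section C had 524, 373 and 350 CPM, section B 328, 285 and 315 CPM, and section A 304, 314 and 277 CPM. All 3 libraries of E lay above all of D, all of D above all of C, and all of C above all of B and A. The means were 3922 ± 831 CPM in E, 1338 ± 662 CPM in D, 415 ± 94.4 CPM in C, 309 ± 22.0 CPM in B and 298 ± 19.0 CPM in A (SD, n = 3 each).

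**Figure D1:**
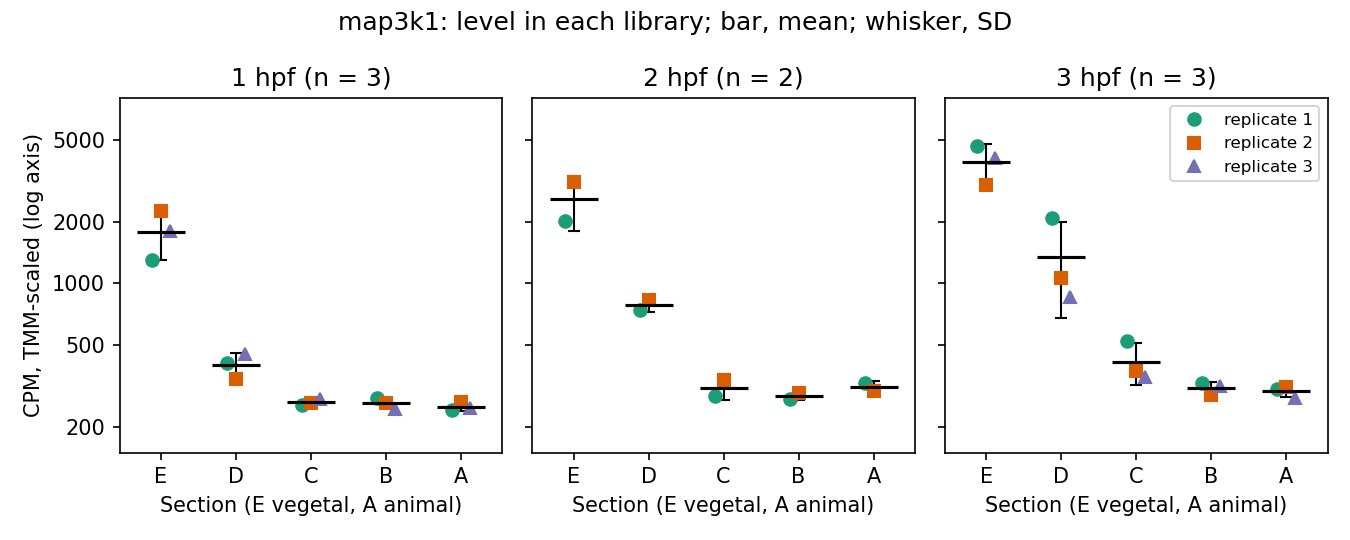
Level of map3k1 in every library, in TMM-scaled CPM on a log axis, by section (E vegetal to A animal) and stage. Points are libraries coloured by replicate, bars are means and whiskers SD; E is highest at each stage and D second, while C, B and A lie close together at 1 and 2 hpf.

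In read counts, without regard to transcript length, map3k1 ranked 5th to 31st among all rows in the 8 libraries of section E, but 532nd to 934th in those of section A. It supplied between 0.126% and 0.411% of the counts of an E library, against 0.0248% to 0.0338% of an A library. Counts behind these shares ran from 364 to 8831 reads per library.

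Differences between sections were tested within each stage by edgeR's quasi-likelihood test over all rows, with the replicate number as a block and Benjamini-Hochberg adjustment. Nothing in the labels says that replicates came from separate clutches, so a p-value here reflects only how much these samples vary. map3k1 differed among the 5 sections at 1, 2 and 3 hpf (adjusted p = 9.44e-15, 3.39e-06 and 7.19e-14), where 11.5%, 6.49% and 12% of tested rows did so. cirbpb did not pass that test at any stage. The section tests of map3k1 are not independent of the abundance that chose it, since that rests on the vegetal sections.

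map3k1 took a larger share of the RNA in section E than in section A at every stage. The log2 fold change of E over A was 2.82 ± 0.13 at 1 hpf, 3.00 ± 0.17 at 2 hpf and 3.69 ± 0.18 at 3 hpf (SE; adjusted p = 2.92e-13, 3.76e-06 and 9.60e-13). These are 7.05-fold, 7.98-fold and 12.9-fold differences. Rows called higher in E made up 6.76%, 5.12% and 8.1% of those tested, and map3k1 ranked 58th of 851, 80th of 645 and 40th of 1023 among them by log2 fold change. Without the 13 libraries that stood apart, the log2 fold changes were 2.79, 2.60 and 3.57. The 2 hpf value of 2.60 then compares E and A of replicate 1 alone.

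The difference was present within each embryo sample. The ratio of E to A was 5.39, 8.46 and 7.31 at 1 hpf, 6.15 and 10.4 at 2 hpf, and 15.3, 9.62 and 14.8 at 3 hpf (replicates in order). The ranges of 1 and 3 hpf did not overlap. That is a description only, since the rise between these stages chose the gene. How many other rows separate in this way was not counted. Tested by edgeR over all rows, the larger E over A at 3 hpf than at 1 hpf did not pass (adjusted p = 0.0841). In replicate 2 at 2 hpf, sections E and A both belong to the libraries that stood apart, so the ratio there is between like libraries.

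Section D was also richer in map3k1 than section A, by less than E was. The log2 fold change of D over A was 0.67 ± 0.13 at 1 hpf, 1.32 ± 0.16 at 2 hpf and 2.09 ± 0.17 at 3 hpf (SE; edgeR adjusted p = 0.00196, 0.00135 and 9.41e-09). Rows called higher in D than in A made up 1.7%, 2.22% and 3.88% of those tested. At 1 hpf the call rests on the block: without it the value was 0.66, with an adjusted p of 0.0578. At 2 hpf the replicate 2 libraries of D and A lie on opposite sides of the split on the first principal component. Without the libraries that stood apart the value was 1.15, with only replicate 1 left in section A.

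Between the vegetal sections themselves, E exceeded D. The log2 fold change of E over D was 2.15 ± 0.13, 1.68 ± 0.16 and 1.60 ± 0.16 at 1, 2 and 3 hpf (SE; edgeR adjusted p = 1.03e-10, 0.00103 and 2.26e-06). Rows called higher in E than in D made up 5.13%, 1.91% and 3.64% of those tested.

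Toward the animal side no difference of map3k1 passed the test. C over A was 0.07 at 1 hpf (95% interval -0.20 to 0.34) and -0.04 at 2 hpf (-0.40 to 0.31) on the log2 scale. At 3 hpf it was 0.45 ± 0.16, with an interval of 0.12 to 0.79 and an edgeR adjusted p of 0.407 over all rows. B over A was 0.06, -0.17 and 0.05 at the 3 stages. Rows called between C and A made up 0.0159%, 0.54% and 1.07% of those tested at 1, 2 and 3 hpf. Between B and A no row was called (0% at each stage), and 463, 335 and 150 rows had an unadjusted p under 0.05.

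cirbpb gave a different picture. At 1 hpf it had 749.6, 808 and 764 CPM in section E and 762, 803 and 731 CPM in section D. It had 709.8, 728 and 703 CPM in C, 526, 735 and 689 CPM in B, and 748, 723 and 643 CPM in A. On this TMM scale every E library lay above every library of C, B and A, if by little over the highest of A. D overlapped all sections but C. By library totals E overlapped A, with 727, 759 and 706 CPM in E against 772, 745 and 669 CPM in A. How many rows separate in this way was not counted. C, B and A overlapped one another, and the lowest library was section B of replicate 1. The mean of E was 774 ± 30.6 CPM and that of A 705 ± 55.1 CPM (SD, n = 3 each).

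At 2 hpf cirbpb had 814 and 959 CPM in E, 825 and 792 CPM in D, 742 and 789.997 CPM in C, 788 and 763 CPM in B, and 703 and 744 CPM in A. On the TMM scale E and D overlapped each other and lay above every library of C, B and A. By library totals E overlapped C, with 767 and 837 CPM in E against 773 and 826 CPM in C. C overlapped both B and A, and both B libraries lay above both A libraries.

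At 3 hpf it had 794, 968 and 973 CPM in E, and 933, 779 and 933 CPM in D. Section C had 988, 879.9 and 843 CPM, section B 874, 828 and 854 CPM, and section A 819, 834 and 804 CPM. The E and D libraries reached both above and below those of A. The means were 912 ± 102 CPM in E, 881 ± 89.1 CPM in D, 904 ± 75.1 CPM in C, 852 ± 23.1 CPM in B and 819 ± 15.1 CPM in A (SD, n = 3 each).

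**Figure D2:**
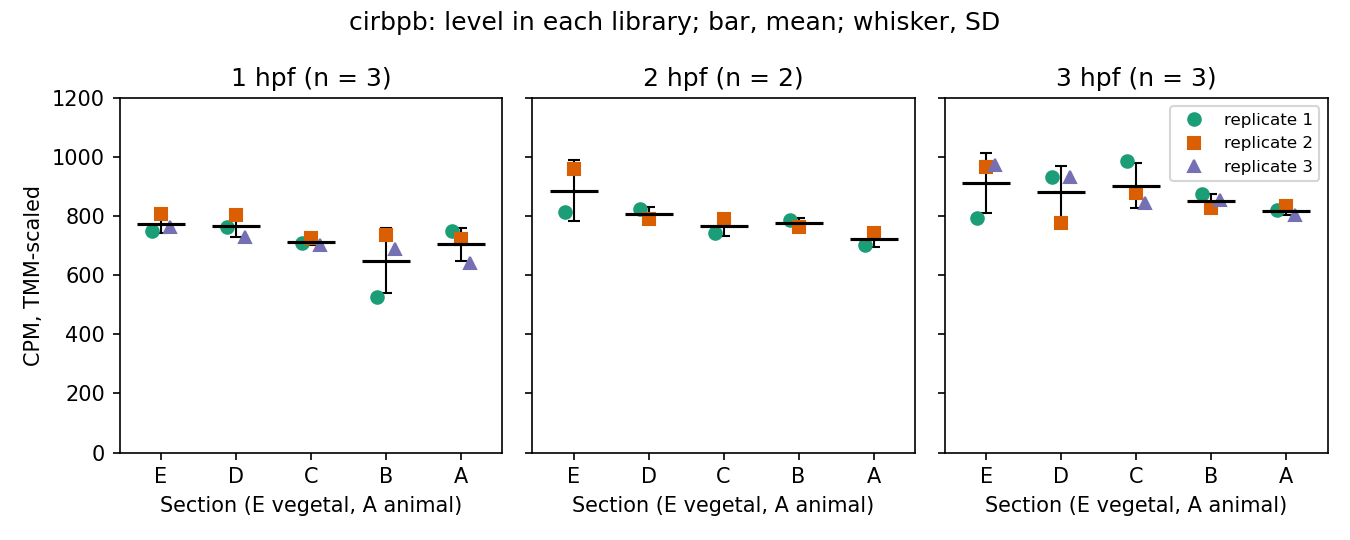
Level of cirbpb in every library, in TMM-scaled CPM on a linear axis from 0, by section (E vegetal to A animal) and stage. Points are libraries coloured by replicate, bars are means and whiskers SD; the 5 sections stay within a narrow band at each stage, and the band lies somewhat higher at 3 hpf.

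Over the 40 libraries cirbpb supplied between 0.0547% and 0.0995% of the counts, with 952 to 5332 reads, and ranked 45th to 181st by read count. Within an embryo sample the highest section exceeded the lowest by 1.12 to 1.45 times.

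None of the section contrasts of cirbpb passed the test across all rows. The edgeR adjusted p for any difference among the 5 sections was 0.222, 0.569 and 0.797 at 1, 2 and 3 hpf. E over A was 0.14 ± 0.08, 0.28 ± 0.11 and 0.15 ± 0.09 on the log2 scale (SE; adjusted p = 0.354, 0.162 and 0.345). The 95% intervals were -0.03 to 0.31, 0.04 to 0.52 and -0.04 to 0.34, so the largest difference they allow is 1.43-fold, at 2 hpf. Within embryo samples E over A was 1.00, 1.12 and 1.19 at 1 hpf, 1.16 and 1.29 at 2 hpf, and 0.970, 1.16 and 1.21 at 3 hpf. At 1 hpf the call turned on 1 replicate: without replicate 1, E over A was 0.20 with an adjusted p of 0.0316. At 3 hpf the sign turned on the scaling: by library totals alone, E over A was -0.058.

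**Figure D3:**
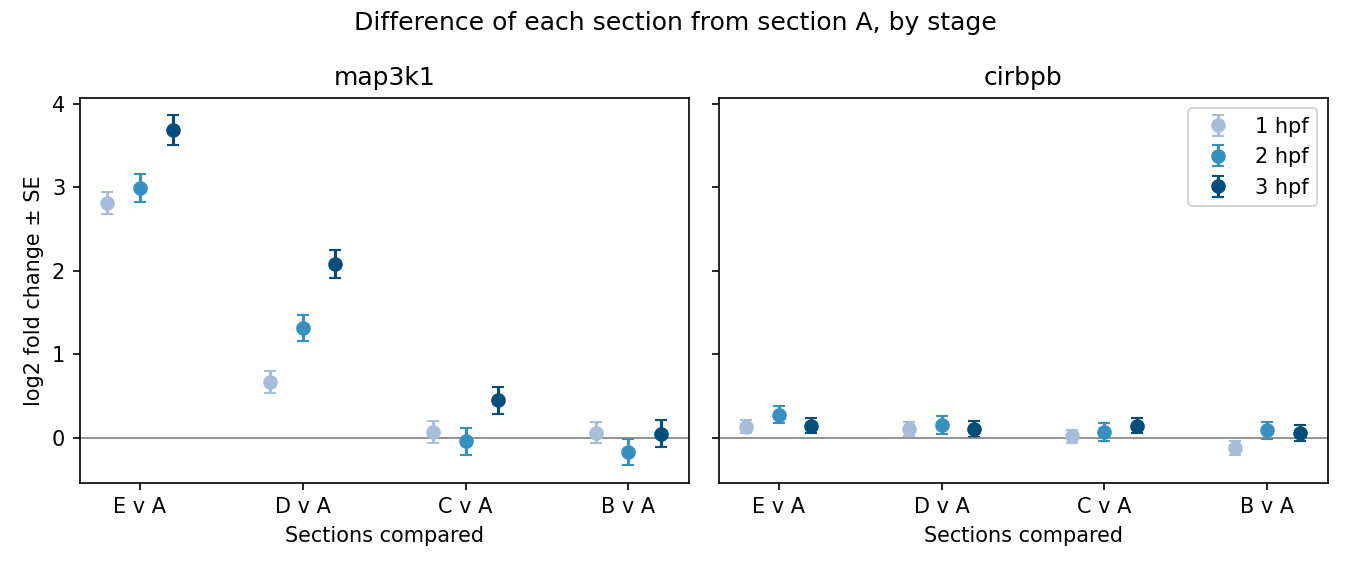
Log2 fold change of sections E, D, C and B over section A, with SE, for map3k1 (left) and cirbpb (right) at 1, 2 and 3 hpf, from edgeR within each stage. For map3k1 the E and D values stand well above 0 at each stage, while for cirbpb every value lies between -0.12 and 0.28.

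cirbpa, the paralog of cirbpb, was called higher in E than in A at 3 hpf. At 3 hpf it had 1196 ± 198 CPM in E, against 917 ± 37.5 CPM in A (SD, n = 3 each). E over A for cirbpa was 0.36 ± 0.10 there (SE; edgeR adjusted p = 0.0106), against 0.15 (adjusted p = 0.260) at 1 hpf and 0.40 (adjusted p = 0.106) at 2 hpf. Whether cirbpa and cirbpb differ in this was not tested. Reads of the paralogs could be split or misassigned where their sequences match, since the counting rule is not given in the sources used here. Over the 40 libraries the log2 levels of both correlated with a Pearson r of 0.747, as a description. These points share embryo samples and depth.

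The rise for which both genes were picked can be seen in the sums of the 5 sections of each embryo sample. map3k1 had 513, 553 and 549 CPM in those sums at 1 hpf, 689 and 584 CPM at 2 hpf, and 890, 694 and 788 CPM at 3 hpf. No 3 hpf sum overlapped the sums of 1 hpf. The log2 fold change of 3 over 1 hpf was 0.56 ± 0.10 (SE), a ratio of 1.47, and 1.74% of 12667 tested rows had a higher one. cirbpb had 698, 762 and 711 CPM at 1 hpf, 789 and 790.04 CPM at 2 hpf, and 882, 861 and 874 CPM at 3 hpf, again without overlap between 3 and 1 hpf. Its log2 fold change was 0.27 ± 0.04 (SE), a ratio of 1.21, and 7.38% of rows had a higher one. In this comparison 1.74% of rows passed the test in either direction (0.379% higher and 1.37% lower). Nothing is read from that, or from the lack of overlap, for the 2 genes, since the contrast chose them.

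Such a sum weights each section by its depth. Section E supplied 21.3%, 14.6% and 17.8% of the summed counts at 1 hpf, 19.9% and 5.78% at 2 hpf, and 8.33%, 10.9% and 11.1% at 3 hpf. When each section was weighted equally, the mean of map3k1 was 592 ± 90.8 CPM at 1 hpf, 852 ± 172 CPM at 2 hpf and 1257 ± 292 CPM at 3 hpf (SD, n = 3, 2 and 3), a 3 to 1 hpf ratio of 2.12. For cirbpb equal weights gave 722 ± 33.1, 792 ± 24.9 and 874 ± 13.8 CPM, and the ratio remained 1.21. The size of the rise of map3k1 therefore moved with the weighting, and that of cirbpb did not. Neither weighting is the RNA content of a section, which was not measured.

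Section by section, the ratio of mean CPM at 3 hpf to mean CPM at 1 hpf was 2.20 in E, 3.33 in D, 1.58 in C, 1.18 in B and 1.19 in A for map3k1. The libraries of 3 and 1 hpf did not overlap in any of the 5 sections. That is a description only, since the rise chose the gene, and how many other rows separate so was not counted. By 2 hpf the ratio to 1 hpf stood at 1.44 in E, 1.96 in D, 1.18 in C, 1.08 in B and 1.25 in A. The ratio of 3 to 2 hpf was 1.53 in E and 1.70 in D but 0.950 in A. The 2 to 1 hpf ratio of E rests in part on section E of 2 hpf replicate 2 (3103 CPM, against 2024 CPM in replicate 1).

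For cirbpb the ratio of 3 to 1 hpf was 1.18 in E, 1.15 in D, 1.27 in C, 1.31 in B and 1.16 in A. The libraries of 3 and 1 hpf overlapped in E and D and did not in C, B and A, again as a description only. Here too, how many other rows separate so was not counted. Its highest ratio was in section B, where 1 low library at 1 hpf (526 CPM) enters the mean.

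**Figure D4:**
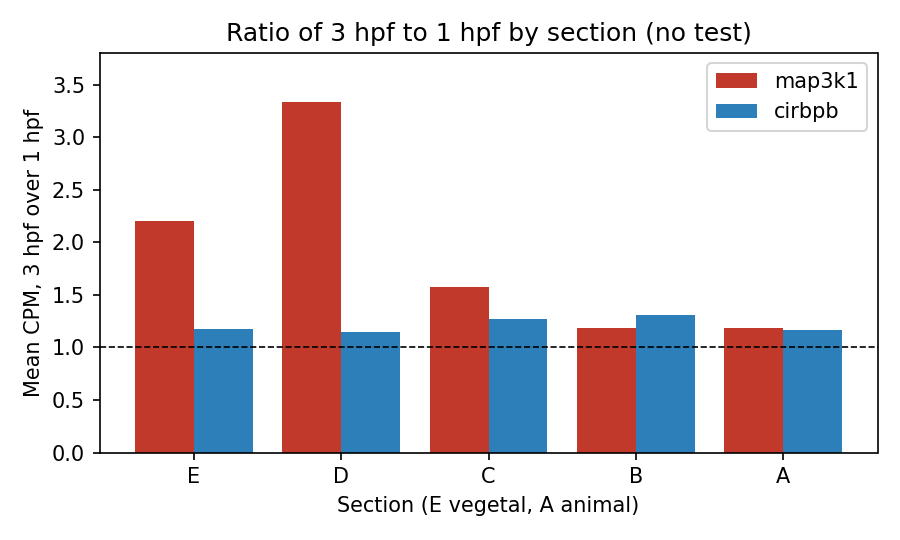
Ratio of mean CPM at 3 hpf to mean CPM at 1 hpf in each section (E vegetal to A animal) for map3k1 and cirbpb, shown as bars from 0 with a dashed line at 1 and no test. map3k1 has its highest ratios in D (3.33) and E (2.20), while cirbpb lies between 1.15 and 1.31 in every section.

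Whether the change between stages was even along the axis was tested as the stage by section interaction in the 40 libraries together, each embryo sample being a block. The choice did not use this interaction directly, but it is not independent of the overall rise that chose map3k1. The ratio of 3 to 1 hpf was 2.20 in E, 3.33 in D and 1.58 in C, against 1.18 in B and 1.19 in A. Choosing a large overall rise can thus favour an uneven change. For map3k1 the 4 section terms between 3 and 1 hpf together passed the test (edgeR adjusted p = 0.00211), as did 0.995% of 12668 rows. The largest term was that of section D: the D-to-A difference was greater at 3 hpf than at 1 hpf by 1.40 ± 0.24 on the log2 scale (SE; 95% interval 0.91 to 1.90; edgeR adjusted p = 0.00221). That single term was looked at after the values were seen, and 0.513% of rows were called higher in it. The E-to-A difference was greater by 0.88 ± 0.24 (95% interval 0.39 to 1.36), which did not pass over all rows (adjusted p = 0.0841), and 0.695% of rows were called. Between 2 and 1 hpf it changed by 0.19 ± 0.27 and between 3 and 2 hpf by 0.69 ± 0.27, neither past the test (adjusted p = 0.935 and 0.316; 0.0237% of rows called in each). The change between 2 and 1 hpf turned to -0.087 without section E of 2 hpf replicate 2 and to -0.17 without the 13 libraries that stood apart. In both fits section E at 2 hpf is left with replicate 1 only. The C-to-A and B-to-A differences changed by 0.37 and -0.02 between 3 and 1 hpf, and neither passed the test.

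The uneven change of map3k1 depended on which samples were in the fit. The edgeR adjusted p of the joint test was 0.113 without replicate 1, 0.0510 without replicate 2 and 0.0753 with no block. It was 0.00238 without replicate 3, and 6.16e-05 without the 13 libraries that stood apart. The D term was 1.07 without replicate 1 (adjusted p = 0.122) and 1.43 without replicate 2 (adjusted p = 0.129). Within embryo samples the ratio of D to A was 1.71, 1.28 and 1.83 at 1 hpf, 2.26 and 2.78 at 2 hpf, and 6.88, 3.38 and 3.10 at 3 hpf. These ratios come from the same data as the D term and add no separate evidence for it. The ratio of 2.78 sets a D library against an A library from the other side of the split.

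Vegetal marker RNAs moved with map3k1 in section D. Their D-to-A difference was greater at 3 than at 1 hpf for 6 of 8 by the same test. That test called 0.513% of all rows higher, and the median over the 8 was 1.57 on the log2 scale. The marker list was chosen with earlier results of these data known. Summed over the 8 markers, D had 3114, 1836 and 2818 CPM at 1 hpf, 5332 and 7522 CPM at 2 hpf, and 14907, 8061 and 4615 CPM at 3 hpf. Replicate 1 had both the highest marker sum and the highest map3k1 level among the D libraries of 3 hpf. In the same 3 libraries the first zygotic genes summed to 19.3, 90.5 and 240.1 CPM, an order opposite to that of the vegetal markers. In section A of the same replicates the zygotic genes summed to 52.4, 16.5 and 127.5 CPM, so replicate 3 was highest there too. The part of these RNAs in the map3k1 values of D was not tested.

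For cirbpb no unevenness was detectable. The joint test gave an edgeR adjusted p of 0.999873, and the E-to-A difference changed between 3 and 1 hpf by 0.02 ± 0.13 on the log2 scale (SE; 95% interval -0.24 to 0.28; adjusted p = 0.978). A change of the size seen for the E-to-A difference of map3k1 (0.88) lies outside that interval.

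The CPM of the 5 sections of each embryo sample were also added up. Section E made up 59.5 ± 7.13% of that map3k1 sum at 1 hpf (SD, n = 3). At 2 and 3 hpf it made up 59.6 ± 5.91% and 62.7 ± 5.89% (SD, n = 2 and 3). Section D made up 13.9 ± 3.38%, 18.7 ± 2.27% and 20.7 ± 5.98% at 1, 2 and 3 hpf. With equal weights, E and D together thus made up most of the summed map3k1 CPM at every stage. The amount of map3k1 RNA in a section was not measured.

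Other kinases of the same tier were compared with map3k1. A total of 11 of 24 MAP3K genes listed had a row. E over A was called higher for 2, 1 and 2 of them and lower for 0, 0 and 1 at 1, 2 and 3 hpf (6.34%, 4.87% and 7.49% of all tested rows were called lower), with a list median of 0.04, -0.28 and 0.00 against 0.00, 0.02 and -0.02 for all rows. map3k7, which encodes TAK1, a kinase of the TGF-beta and NF-kappaB pathways, was the other strongly vegetal member. It had 1128 ± 212 CPM in E and 229 ± 31.0 CPM in A at 1 hpf, and 1677 ± 248 CPM in E against 279 ± 21.8 CPM in A at 3 hpf (SD, n = 3 each). Its E over A was 2.30 ± 0.12, 2.75 ± 0.14 and 2.58 ± 0.14 at the 3 stages (SE; edgeR adjusted p = 1.01e-12, 1.95e-06 and 6.21e-12). map3k21, a mixed-lineage kinase, was higher in E at 1 hpf (1.15 ± 0.25) and 3 hpf (1.65 ± 0.30), and map3k3 was lower in E at 3 hpf (-0.59 ± 0.15). Without replicate 3 only 1 member was called at 1 hpf, and without replicate 2 none was lower at 3 hpf.

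map3k2 and map3k4, relatives of map3k1 by name, did not pass the test between E and A at any stage. map3k4 had 366 ± 36.0 CPM in E and 401 ± 13.0 CPM in A at 3 hpf, with E over A of -0.15 (adjusted p = 0.363). map3k2 had 22.9 ± 5.48 CPM in E and 30.4 ± 7.28 CPM in A (E over A -0.42, adjusted p = 0.251). In the sums of the 5 sections no MAP3K gene of the list passed the edgeR test between 3 and 1 hpf. With a block for the replicate number, map3k7 did (0.24 ± 0.05, adjusted p = 0.0378).

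Of the next tiers, 18 of 25 MAP2K and MAPK genes had a row, and 2, 2 and 3 were called higher in E than in A at 1, 2 and 3 hpf, none lower. Of all tested rows, 6.76%, 5.12% and 8.1% were called higher and 6.34%, 4.87% and 7.49% lower. These shares also apply to the E over A counts of the lists below. Whether any list exceeds them was not tested. mapk3, which encodes ERK1, was higher by 0.80 ± 0.13, 1.19 ± 0.22 and 0.95 ± 0.16, and map2k2a, which encodes an ERK-activating kinase, by 0.58 ± 0.11, 0.63 ± 0.10 and 0.76 ± 0.10 (SE, log2). mapk8a, a JNK gene, was called at 3 hpf (0.49 ± 0.16, edgeR adjusted p = 0.0491). The medians of the list were 0.18, 0.07 and 0.18. Between 3 and 1 hpf only map2k6, which encodes a p38-activating kinase, passed the test in the sums, with 49.5 ± 4.85 CPM at 3 hpf and 84.7 ± 5.76 CPM at 1 hpf (SD, n = 3 each). It fell by 0.78 on the log2 scale (adjusted p = 0.0159), a call that was lost without replicate 1 or 2.

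Among regulators that act upstream of MAP3K enzymes, such as small GTPases, TRAF adaptors and MAP4K kinases, 23 of 32 had a row. E over A was called higher for 2, 1 and 2 and lower for 1, 0 and 3 at the 3 stages. map4k3a was higher in E by 1.30 ± 0.14, 0.83 ± 0.14 and 1.64 ± 0.14, and traf7 was lower in E at 1 hpf (-0.51 ± 0.11) and 3 hpf (-0.43 ± 0.13; SE, log2). Of the 3 members lower at 3 hpf, 1, 0 and 1 were left when replicate 1, 2 or 3 was left out, and the 1 at 1 hpf was lost without replicate 2. cdc42, a small GTPase, was higher in E at 1 hpf (0.46 ± 0.09), and its E-to-A difference changed by -0.57 ± 0.13 between 3 and 1 hpf (edgeR adjusted p = 0.0253). In the sums, traf2b fell by 0.68 between 3 and 1 hpf (adjusted p = 0.0425). With the replicate block grb2b, an adaptor gene, fell by 0.51 and rhoac, a small GTPase gene, rose by 0.23 (edgeR adjusted p = 0.0227 and 0.0427). No share of all rows is given here for that fit. The cdc42 call was lost without any 1 of the replicates, and the traf2b call without replicate 1 or 2.

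Of 29 listed targets and feedback regulators of MAPK signalling, 14 had a row. mapkapk2a, a kinase activated by p38, was the single member called higher in E, at all 3 stages. At 3 hpf E had 55.2 ± 16.0 CPM of it, against 5.86 ± 0.575 CPM in A (SD, n = 3 each), and E over A was 2.94 ± 0.22, 2.91 ± 0.30 and 3.23 ± 0.27 (SE). dusp1, a phosphatase that switches MAPK enzymes off, was lower in E at 3 hpf (-0.56 ± 0.09), and its E-to-A difference changed by -0.52 ± 0.10 between 3 and 1 hpf (edgeR adjusted p = 0.00989), a call lost without any 1 of the replicates. No target passed the test in the sums between 3 and 1 hpf. With the replicate block dusp1 did (-0.41 ± 0.09).

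Genes with cold-shock domains, genes of the hnRNP and RBM families and other RNA-binding genes were compared with cirbpb. Of 48 listed, 33 had a row. E over A was called higher for 6, 4 and 7 and lower for 1, 0 and 0 at 1, 2 and 3 hpf, with medians of 0.05, 0.21 and 0.11. The strongest was dazl, a germ cell gene that is also among the vegetal markers. hnrnph1 followed, with 90.4 ± 25.1 CPM in E against 6.07 ± 1.71 CPM in A at 3 hpf (SD, n = 3 each) and E over A of 3.12 ± 0.34, 3.93 ± 0.36 and 3.86 ± 0.34 (SE). rbm8a, a core protein of the exon junction complex, was higher in E by 0.53 ± 0.10, 0.77 ± 0.14 and 0.67 ± 0.09. lin28b was lower at 1 hpf (-0.69 ± 0.19), which was lost without replicate 1 or 2.

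**Figure D5:**
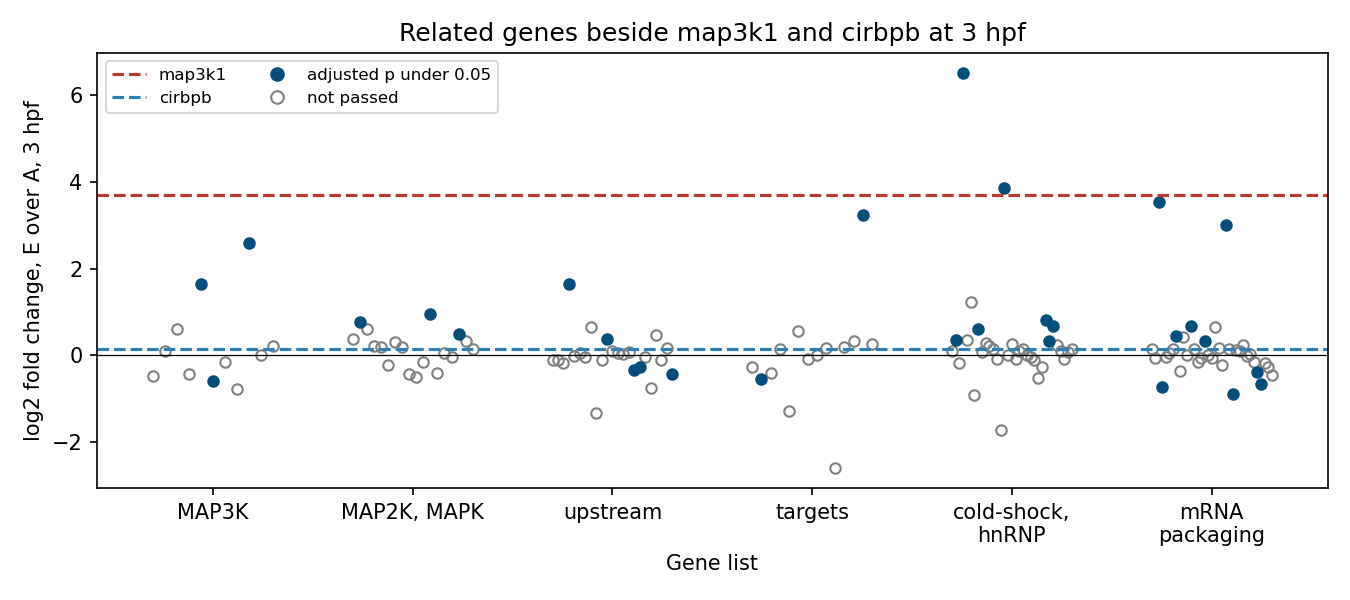
Log2 fold change of section E over section A at 3 hpf for genes of 6 lists, with filled points for those past an edgeR adjusted p of 0.05 and open points for the rest. Dashed lines mark map3k1 (3.69) and cirbpb (0.15); few genes of the kinase lists approach the map3k1 line, and most points of every list lie near 0.

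In the sums of the 5 sections the same RNA-binding genes had a median log2 fold change of 0.19 between 3 and 1 hpf, against 0.00 for all rows. Only rbm4.3 passed the edgeR test, with 749 ± 33.1 CPM at 3 hpf and 623 ± 8.87 CPM at 1 hpf (SD, n = 3 each; 0.27 ± 0.04 SE, adjusted p = 0.0380), and without any 1 of the replicates 0 passed. hnrnpaba (0.33, adjusted p = 0.0524) and hnrnpa1b (0.27, adjusted p = 0.0622) missed it. With the replicate block rbm4.3, hnrnpaba, hnrnpa1b and ybx1 passed, all higher at 3 hpf. No share of all rows is given here for that fit, so nothing is read from their number. The log2 fold change of cirbpb (0.27) lies among those of these genes, but nothing is read from this, since the rise chose cirbpb. The log2 fold change of cirbpa was 0.23 ± 0.09 (SE; edgeR adjusted p = 0.272).

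Genes for mRNA storage, poly(A) binding and granules were mixed in direction, with 35 of 43 having a row. E over A was called higher for 5, 3 and 5 and lower for 5, 6 and 4 at 1, 2 and 3 hpf. lsm14ab, a P-body protein gene, was higher in E by 2.26 ± 0.12, 2.73 ± 0.13 and 3.00 ± 0.14, while pabpc1a, a poly(A)-binding protein gene, was lower (-1.01 ± 0.10, -0.90 ± 0.11 and -0.89 ± 0.11; SE, log2). Leaving out replicate 2 or 3 left 3 lower members at 1 hpf, and leaving out replicate 3 left 2 at 3 hpf. None passed between 3 and 1 hpf in the sums. With the block, for which no share of all rows is given here, lsm14ab was higher (0.34 ± 0.05) and pabpc1l and zar1l_1 were lower. Of 31 heat, cold and stress response genes, 22 had a row. At 1 hpf hsp90ab1 was lower in E (-0.19 ± 0.06), at 3 hpf hspa8b was higher (2.56 ± 0.57), and at 2 hpf none was called. The first was lost without replicate 1 or 2, and the second without replicate 1. None passed between 3 and 1 hpf, with a list median of -0.12; with the block hspe1 fell by 1.28.

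Rows whose level across the 40 libraries was most like that of map3k1 were found by the Pearson r of log2(CPM + 1) among 8419 rows of at least 10 CPM on average. They were mob1bb and ube2q2 (r = 0.992 each), slc38a7 (0.989), vrk3 (0.988) and tsc22d2 (0.987). All 5 were vegetal: at 3 hpf mob1bb averaged 997 CPM in E and 122 CPM in A, and ube2q2 1391 CPM in E and 240 CPM in A. slc38a7 averaged 1640 CPM in E and 169 CPM in A, vrk3 944 CPM in E and 71.0 CPM in A, and tsc22d2 912 CPM in E and 159 CPM in A. A total of 243 rows had an r above 0.9 with map3k1.

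The rows most like cirbpb were ddx39aa (r = 0.883), khdrbs1a and hnrnpaba (0.872 each), hnrnpa1b (0.821) and hnrnpa1a (0.818), and no row exceeded 0.9. The log2 level of cirbpb varied far less (SD 0.175) than that of map3k1 (SD 1.33), so the coefficients of the 2 genes cannot be compared directly. At 3 hpf ddx39aa averaged 359 CPM in E and 341 CPM in A, and khdrbs1a 1796 CPM in E and 1584 CPM in A. These coefficients are descriptions over libraries that share embryo samples, depth and the split into 13 and 27. The coefficient between map3k1 and cirbpb was 0.513.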

How the data were processed

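Whole-number read counts per gene were deposited by the authors in 1 table of 40 columns, per the file headers. The submitters' processing notes name build GRCz11 and DESeq2, and HTSeq 2.0.4, STAR 2.7.11 and fastp 0.23.4. Their roles, the annotation, the strand setting and the row filter are not given in the sources used here. The other deposited tables were not used.

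In R 4.3.3, edgeR 4.0.16 fitted these counts after filterByExpr and gave quasi-likelihood tests, with TMM factors and Benjamini-Hochberg adjustment at 0.05 over all tested rows. The code was tested on simulated data. Sections were compared within a stage with the replicate number as a block, since sections of 1 stage and number are 1 biological replicate per the labels. Stages were compared on sums of the 5 sections, and the change of section differences over all libraries with a block per embryo sample. CPM are counts over the TMM-scaled total, times 1e6.

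The 2 genes and all gene lists were chosen with earlier results of these data known, and so were the tests and alternatives. Named genes were map3k1, cirbpb, cirbpa and map3k2 to map3k4, up to 4 called members per list, comparison and direction, and the 5 most similar rows with a descriptive symbol. Replicate numbers of 1 and 3 hpf were checked for pairing by the deviations of sums from their stage means. Same-numbered sums correlated at 0.680, 0.663 and 0.891 across genes, and crossed numbers 1 and 2 at 0.677 and 0.705. Numbers 1 and 2 crossed with number 3 correlated at -0.779, -0.785, -0.790 and -0.764. The stage tests on sums had no block unless one is named. What a number shared between stages means is not labelled. Alternatives were library totals, DESeq2 1.42.0 (size factors and Wald test), no filter, rows of 1 symbol summed, the block, and leaving out replicates or libraries. No sequence or coordinate is given.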

Additional observations from a re-analysis of the deposited data

Results flagged for a closer look

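The change of map3k1 between 3 and 1 hpf differed among the 5 sections by the stage by section test over all libraries (edgeR's quasi-likelihood test, adjusted p = 0.00211). That call was lost without replicate 1 (adjusted p = 0.113), without replicate 2 (0.0510) and with no block (0.0753). The test is also not independent of the overall rise that chose map3k1. Its D-to-A difference alone was greater at 3 hpf than at 1 hpf by 1.40 on the log2 scale. The within-embryo ratios of D to A, from the same data, were 6.88, 3.38 and 3.10 at 3 hpf and 1.71, 1.28 and 1.83 at 1 hpf. The D term was looked at after the values were seen, and it was lost without replicate 1 (adjusted p = 0.122) or replicate 2 (adjusted p = 0.129).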

How the results depend on the processing

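At 1 and 3 hpf E over A of map3k1 passed under every alternative run, at 2.66 to 2.98 and 3.48 to 3.90 on the log2 scale. At 2 hpf it ran from 2.60 to 3.02. Some of the 2 hpf runs leave only replicate 1 in E, so no call is drawn from those. Leaving out each replicate gave 2.66 to 2.98 at 1 hpf and 3.57 to 3.90 at 3 hpf. The change of E over A between 3 and 1 hpf was 0.60 to 1.24, never past the test. The joint section test of the change missed the threshold with no replicate block (adjusted p = 0.0753), ran from 0.00238 to 0.113 on leaving out each replicate, and was 0.00103 (2 hpf replicate 2 less its sections C and D) and 6.16e-05 (less the 13 libraries that stood apart); the D term ran from 1.07 to 1.70 and was lost without replicate 1 or 2. The change of E over A between 2 and 1 hpf turned to -0.087 without section E of 2 hpf replicate 2 and to -0.17 without the 13 libraries that stood apart (chosen after seeing the data), and ran from -0.047 to 0.38 on leaving out each replicate. Equal section weights moved map3k1 to 1.09, 0.52 and 0.56 for 3 over 1, 2 over 1 and 3 over 2 hpf. With the replicate block the summed values of map3k1 and cirbpb were 0.55 and 0.27. D over A of map3k1 at 1 hpf was 0.66 with no replicate block, past the threshold no longer.

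For cirbpb, the lowest E over A of any alternative was 0.0077 at 1 hpf, and at 3 hpf it was -0.058 by library totals. It ran from 0.081 to 0.20 at 1 hpf (0.22 without section A of replicate 1) and 0.09 to 0.24 at 3 hpf on leaving out each replicate. Its change between 3 and 1 hpf was -0.065 by library totals, -0.066 without section A of 1 hpf replicate 1, and -0.0084 to 0.035 on leaving out each replicate. Small uncalled contrasts also changed sign. By library totals these were E over D of cirbpb (-0.094, -0.018 and -0.090 at the 3 stages) and C over A of map3k1 at 2 hpf (0.0072). On leaving out each replicate, changes between 3 and 1 hpf ran from -0.024 to 0.29 (B to A), -0.0034 to 0.21 (C to A) and -0.10 to 0.097 (D to A) for cirbpb, and from -0.12 to 0.047 (B to A) for map3k1. In the same way B over A at 1 hpf ran from -0.23 to 0.059 for cirbpb and -0.015 to 0.11 for map3k1, C over A of cirbpb at 1 hpf from -0.030 to 0.066, its E over D at 3 hpf from -0.084 to 0.17, and B over A of map3k1 at 3 hpf from -0.030 to 0.16. The values -0.030 in C over A and B over A also stand for the fit without the 13 libraries. The cause was not tested.

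Of 1526 list counts under alternatives, 1369 stayed within 1.5 times and 157 did not. Library totals moved the median of all rows in E over A to -0.14, -0.14 and -0.22. The fit within 2 hpf could not be made without replicate 1 or 2, and DESeq2 was not run for the joint tests. At 2 hpf 2 replicates limit every contrast.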
